A study of Homo sapiens with 8 samples.

Results

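Tight clusters are stretches of RNA on which UVA crosslinking of the polypyrimidine tract binding protein (PTB) left 4 or more sites in close succession. To find them, UVA peaks of 1 strand lying within 20 nt of each other were joined as a site, sites separated by at most 200 nt were chained, and chains of 4 or more sites were kept. Of 70110 UVA sites in 53105 chains, this rule gave 1232 clusters holding 5844 sites (8.34% of the sites), with 620 clusters on the plus strand and 612 on the minus strand. The positions of the UVA peaks therefore chose the clusters, and everything about the number, spacing and length of their UVA sites is a description.

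The study used GoldCLIP, a gel-free form of crosslinking and immunoprecipitation (CLIP), in which a Halo-tagged protein is pulled down on beads with its crosslinked RNA and a library is made by an iCLIP-type procedure. The 8 samples are human 293T cells, an embryonic kidney line kept in puromycin, each carrying a Halo-tag transgene, in 4 groups of 2. Of these, 3 groups express Halo-PTB and received UVA, UVC or no UV, and the fourth expresses the yellow fluorescent protein (YFP) with the same tag and received UVC. The promoter of the transgenes, the number of clones and any photoreactive nucleoside used before UVA are not named in the labels read here. Each group has 1 peak list for both replicates, and the list called iCLIP below was derived by the submitters from an earlier published PTB study. That study is not part of the 8 samples, and its cells may differ from these. The lists carry no read numbers, so depth is unknown, no spread between replicates can be given, and no comparison below has a p-value. Intervals are 95% intervals (exact Clopper-Pearson for shares, normal for differences) that cover counting error only and treat sites as independent, which sites of 1 cluster are not. Positions are taken as hg19, and clusters are named by position and strand.

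PTB is an RNA-binding protein with several RNA recognition motifs, each of which contacts a short run of pyrimidines. It is best known as a repressor of alternative exons and also acts on RNA stability and translation in the cytoplasm. Long or repeated pyrimidine tracts can take up more than 1 PTB molecule, and closely spaced contacts are a known feature of RNAs that PTB regulates.

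Most clusters were short and held few sites. There were 725 clusters of 4 sites (58.8%), 300 of 5, 193 of 6 to 9 and 14 of 10 or more. Lengths ran from 205 to 2732 nt, with a median of 555.5 nt and quartiles of 445 and 693 nt, and 74 clusters exceeded 1000 nt. UVA sites took up 49.0% of a cluster at the median, with quartiles of 39.6% and 59.2%. The gap between neighbouring sites had a median of 68 nt (quartiles 41 and 113 nt), and the centres of neighbouring sites lay 135 nt apart at the median (quartiles 99 and 183 nt). Most gaps were therefore well short of the 200 nt allowed. Gaps near that limit were not sharply divided: 798 neighbouring UVA sites lay 181 to 200 nt apart, and 719 lay up to 20 nt beyond that limit.

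Clustered UVA sites were a little wider than isolated ones and scored a little higher. The deposited score belongs to the authors' peak calling, is higher for peaks of lower p-value and was taken as limited to 1000. The median width was 48 nt in clusters, 45 nt in chains of 3, 42 nt in chains of 2 and 37 nt for single sites. The median score was 103, 93, 89 and 69 in the same order. Sites made of more than 1 peak were 20.3% of clustered sites and 10.9% of single sites. The width of a site spans its joined peaks and its score is the highest among them. Joining can therefore raise both, and its part in these differences was not tested. Values per chain were lower just outside the rule than just inside it. The 2321 chains of 3 sites had a median length of 332 nt and a median highest score of 161. The 725 chains of 4 had 480 nt and 208. An iCLIP peak lay in 50.97% of the chains of 3 and in 63.2% of the chains of 4. A UVC peak lay in 41.3% and 55.6%. A chain with more sites tends to be longer, takes its highest score from more sites and has more room for a peak. These values per chain therefore cannot show a step at the rule. Per site, an iCLIP peak met 26.0% in chains of 3 and 27.8% in chains of 4, with intervals that overlapped. For UVC the shares per site were 16.8% and 19.2%, with intervals that did not overlap.

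The cluster with the most UVA sites lay on chromosome 12 from 57112544 to 57115275 (minus strand, 2732 nt). It held 19 UVA sites with scores of 65 to 643. Read from its 5′ end, the first site was 124 nt wide and scored 643, the next 183 nt wide with a score of 239, and the widest was 212 nt with a score of 399. Inside it lay 11 iCLIP sites and 6 UVC sites, and neither control had a site there. The iCLIP sites overlapped 11 of the 19 UVA sites and the UVC sites overlapped 4. The highest iCLIP score in it was 1000, for a site 164 nt wide near the 3′ end, and the highest UVC score was 64. Both other PTB maps thus placed sites along the length of this cluster, iCLIP on more of its UVA sites than UVC.

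Other large clusters split in different ways between the maps. On chromosome 6 from 116597868 to 116599968 (minus strand), 16 UVA sites scoring 87 to 382 met 5 UVC sites and 3 iCLIP sites. One UVC site there scored 275, above the 25 to 52 of the others, and lay on the UVA site that scored highest, at 382. On chromosome 18 from 32917935 to 32919645 (minus strand), 11 UVA sites met 5 iCLIP sites, the widest 297 nt long, and no UVC site. On chromosome 21 from 44525390 to 44526834 (minus strand), 11 UVA sites met 1 iCLIP site and no UVC site. On chromosome 16 from 70605844 to 70607443 (plus strand), 11 UVA sites met 4 UVC sites and 1 iCLIP site. On chromosome 1 from 231468914 to 231470753 (minus strand), 12 UVA sites met 5 UVC sites and 1 iCLIP site. The pair on chromosome 5, from 179045761 to 179047370 and from 81569657 to 81571084 (both minus strand), held 13 and 12 UVA sites, with 6 and 3 UVC sites and 5 and 4 iCLIP sites. None of these 7 clusters held a control site.

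**Figure D1:**
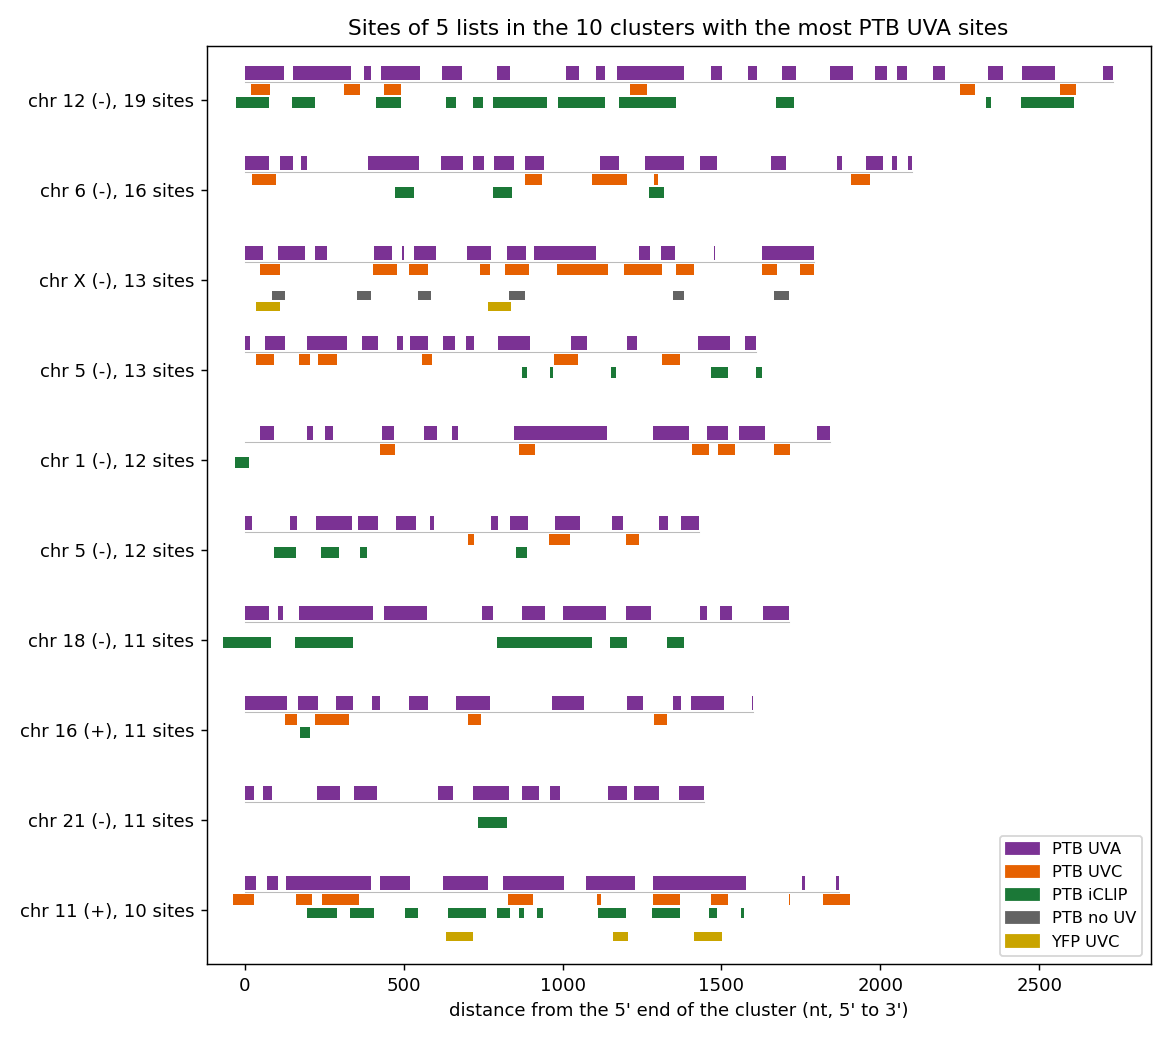
Sites of the 5 lists in the 10 clusters with the most UVA sites (of 5 clusters tied at 10 sites, the longest is shown), drawn to scale from the 5′ end of each cluster in nt; colours mark the list and rows the cluster, named by chromosome and strand. The chromosome 12 cluster carries 11 iCLIP sites over its length, the chromosome 18 and 21 clusters carry no UVC site, and in these 10 clusters control sites appear on chromosomes X and 11.

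The clusters richest in iCLIP or UVC sites were not always those richest in UVA sites. On chromosome 19 from 54645394 to 54646602 (plus strand), 10 low-scoring UVA sites (39 to 140) met 8 iCLIP sites, which overlapped 7 of them, and no UVC site. On chromosome 5 from 41918263 to 41919470 (plus strand), 7 wide UVA sites took up 79.5% of 1208 nt, and 8 iCLIP and 4 UVC sites lay among them. On chromosome 17 from 46986686 to 46987606 (plus strand), 9 UVA sites met 7 iCLIP sites and 1 UVC site. The reverse held on chromosome 19 from 57818434 to 57819712 (plus strand), where 8 UVA sites met 8 UVC sites and 2 iCLIP sites. On the same chromosome from 6413375 to 6414707 (minus strand), 8 UVA sites met 7 UVC and 6 iCLIP sites and 1 site of the list without UV.

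Most clusters held PTB sites of the other 2 maps, which the rule did not use. An iCLIP peak lay on the same strand in 827 clusters (67.1%, interval 64.4 to 69.8), against 21.0% of UVA chains of any size. A UVC peak lay in 741 clusters (60.1%, interval 57.4 to 62.9), against 15.1% of chains of any size. Both were present in 527 clusters (42.8%), iCLIP alone in 300 (24.4%), UVC alone in 214 (17.4%) and neither in 191 (15.5%). These shares are not independent of length: the clusters with neither had a median length of 452 nt and those with both 619 nt. The median of the highest UVA score per cluster was 110 in clusters with neither and 354 in clusters with both. Of the 4-site clusters, 60.0% of those with an iCLIP peak also held a UVC peak (interval 55.4 to 64.6), against 47.9% of those without one (interval 41.8 to 54.1). In clusters of 5 the shares were 61.5% and 50.6%, with intervals that overlapped. No such gap was seen in clusters of 6 or more, where the shares were 71.6% of 88 and 81.25% of 32 clusters of 6 sites, and 85.3% of 68 and 84.2% of 19 clusters of 7 or more.

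Single sites give a measure that does not depend on cluster length. Of the 5844 clustered UVA sites, 1692 were overlapped by an iCLIP peak (28.95%, interval 27.8 to 30.1), beside 19.0% of all UVA sites and 15.2% of the 41801 single sites. The clustered share exceeded that of single sites by 13.8 percentage points (interval 12.6 to 15.0). For UVC, 1158 clustered sites were overlapped (19.8%, interval 18.8 to 20.9), beside 12.6% of all UVA sites and 10.3% of single sites. That difference was 9.53 points (interval 8.47 to 10.6). Sites in chains of 2 or 3 lay between, at 23.4% for iCLIP and 15.0% for UVC. Taken apart, chains of 2 stood at 22.2% and 14.1%, and chains of 3 at 26.0% and 16.8%. The rise thus began below the size of a tight cluster. Within clusters the iCLIP share did not go on rising with the number of sites: it was 27.8% in clusters of 4, 31.9% in clusters of 5, 28.4% in those of 6 or 7 and 28.2% in those of 8 or more. The intervals were 26.1 to 29.4 for clusters of 4 and 29.5 to 34.3 for clusters of 5. The UVC share was 19.2%, 18.4%, 21.1% and 25.5% in the same order. The intervals of the first and last (17.8 to 20.7 and 21.5 to 29.8) did not overlap, but they treat sites of a cluster as independent. The last share rests on 115 of 451 sites in only 48 clusters. The chromosome X cluster from 73066947, which held peaks of both controls, gave 10 of these 115 from its 13 UVA sites. The share without that cluster was not computed, so no rise of the UVC share with cluster size is concluded.

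**Figure D2:**
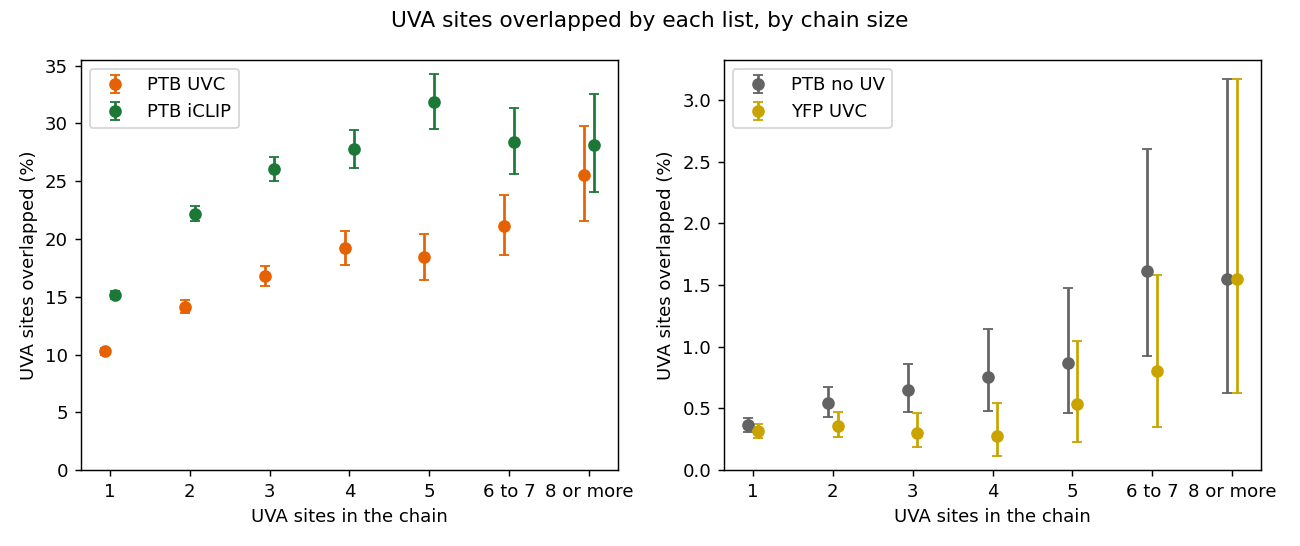
Share of UVA sites overlapped on the same strand by a peak of each other list, by the number of UVA sites in their chain; points are shares in percent and bars are exact 95% intervals for counting error. The iCLIP share is 15.2% for single sites, 22.2% and 26.0% in chains of 2 and 3, and 27.8% in clusters of 4. It is 31.9% in clusters of 5 and 28.4% and 28.2% in larger ones. The right panel has its own, smaller scale for the controls.

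Clustered sites scored higher than single ones, so the comparison was also made within bands of the UVA score, chosen with the data in view. In every band clustered sites were overlapped more often than single sites by both PTB lists. Up to a score of 30 the iCLIP shares were 10.6% (clustered) and 3.87% (single), a difference of 6.71 points (interval 3.59 to 9.83). Above 200 and up to 500 they were 45.7% and 26.0% (difference 19.7 points, interval 16.5 to 22.9). At the score limit they were 63.8% of 163 and 52.2% of 767 sites (difference 11.7 points, interval 3.47 to 19.8). For UVC the differences ran from 4.33 points at scores up to 30 (interval 1.67 to 6.99) to 22.5 points above 500 and below the limit (interval 16.4 to 28.7). Bands of site width gave the same order: among sites of at most 30 nt, 15.2% of clustered and 8.21% of single sites met an iCLIP peak, and among sites of 81 nt or more, 51.3% and 39.9%. The list without UV also met clustered sites more often than single ones in every band of score and width. At scores above 200 and up to 500 its shares were 1.65% and 0.434% (difference 1.22 points, interval 0.425 to 2.015). In the other score bands its intervals held 0. By score, the YFP share was higher in clusters only above 200, with intervals that held 0. Score and width each move with clustering. The gap between clustered and single sites was present within each band of either for UVC, iCLIP and the list without UV.

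**Figure D3:**
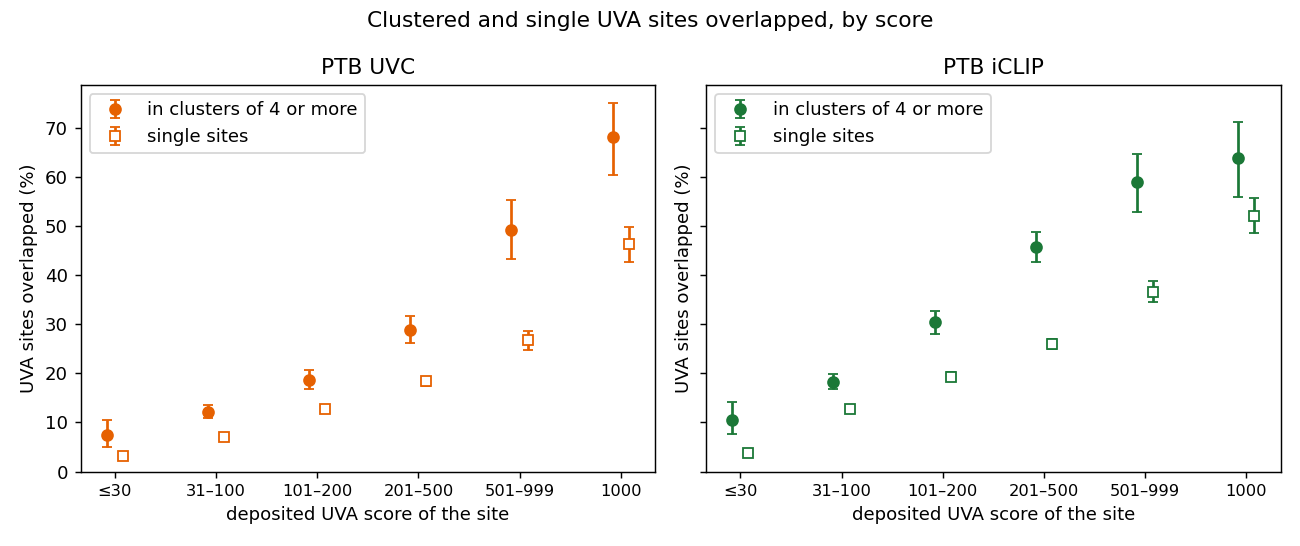
Share of UVA sites overlapped by a PTB UVC peak (left) or an iCLIP peak (right), by the deposited UVA score of the site; filled circles are sites in clusters, open squares single sites, and bars exact 95% intervals for counting error. Filled circles lie above open squares in all 6 bands of both panels.

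Neighbouring sites of the same strand come closest to a comparison within a locus. The 3976 unclustered UVA sites within 5 kb of a cluster had a median score of 112, above the 103 of clustered sites, and a median width of 42 nt. Of these neighbours, 21.3% met an iCLIP peak, 7.68 points fewer than clustered sites (interval 5.95 to 9.40). For UVC the neighbours stood at 16.9%, 2.91 points below clustered sites (interval 1.36 to 4.46). The difference from neighbours was thus smaller than that from single sites anywhere, for UVC more than for iCLIP.

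Coverage around the clusters fell off close to their edges. Inside clusters iCLIP peaks covered 155 nt per kb and UVC peaks 96.2 nt per kb. In the flanks from 1000 to 2000 nt the values were 12.7 and 15.8 nt per kb, so that clusters held 12.25 times (iCLIP) and 6.11 times (UVC) the flanking coverage. For the controls, whose coverage inside clusters was 4.34 (no UV) and 3.235 (YFP) nt per kb, the same ratios were 5.45 and 3.46. Against flanks of 5000 to 20000 nt the ratios were 32.3 for iCLIP, 19.0 for UVC, 19.4 without UV and 11.8 for YFP. Inside clusters, UVA sites were covered more than the gaps between them: 216.5 against 94.2 nt per kb for iCLIP and 126.6 against 66.1 nt per kb for UVC. The gaps were nevertheless covered more than the flanks of 200 to 500 nt, at 19.3 nt per kb for iCLIP and 22.8 for UVC. Those flanks lie farther from a UVA site than the gaps do. In the nearest 50 nt of flank, iCLIP covered 120.1 nt per kb on the 5′ side and 32.1 on the 3′ side. The UVC values there were 51.9 and 47.8. The 5′ iCLIP value was above that of the gaps, and the other values were below. Over single UVA sites iCLIP covered 129.2 nt per kb and UVC 81.25 nt per kb, below their coverage of clustered sites by 1.68 and 1.56 times. The same ratio was 1.956 without UV, the highest of the 4 lists, and 1.12 for YFP.

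The iCLIP coverage was higher at the 5′ side of the clusters than at the 3′ side, and the UVC coverage was about even over the nearest 200 nt. In the first 200 nt upstream of the clusters, where the rule allows no UVA site, iCLIP covered 51.4 nt per kb, and in the first 200 nt downstream 17.5 nt per kb, a ratio of 2.94. An iCLIP peak reached the upstream flank of 317 clusters (25.7%, interval 23.3 to 28.3) and the downstream flank of 126 (10.2%, interval 8.59 to 12.1). The corresponding UVC values were 27.1 and 29.8 nt per kb, in 202 clusters (16.4%) upstream and 215 (17.5%) downstream. From 100 to 200 nt away UVC leaned the other way, with 14.8 nt per kb upstream and 23.1 downstream (ratio 0.640), and did so on both strands (0.644 on plus, 0.637 on minus). Between 200 and 1000 nt away the iCLIP ratio fell to 1.13. Inside the clusters, each divided into 10 equal parts, the part nearest the 5′ edge had the highest iCLIP coverage (221.8 nt per kb) and the part at the 3′ edge the lowest (101.6 nt per kb), whereas UVC stayed between 80.5 and 111.2 nt per kb in all 10 parts.

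**Figure D4:**
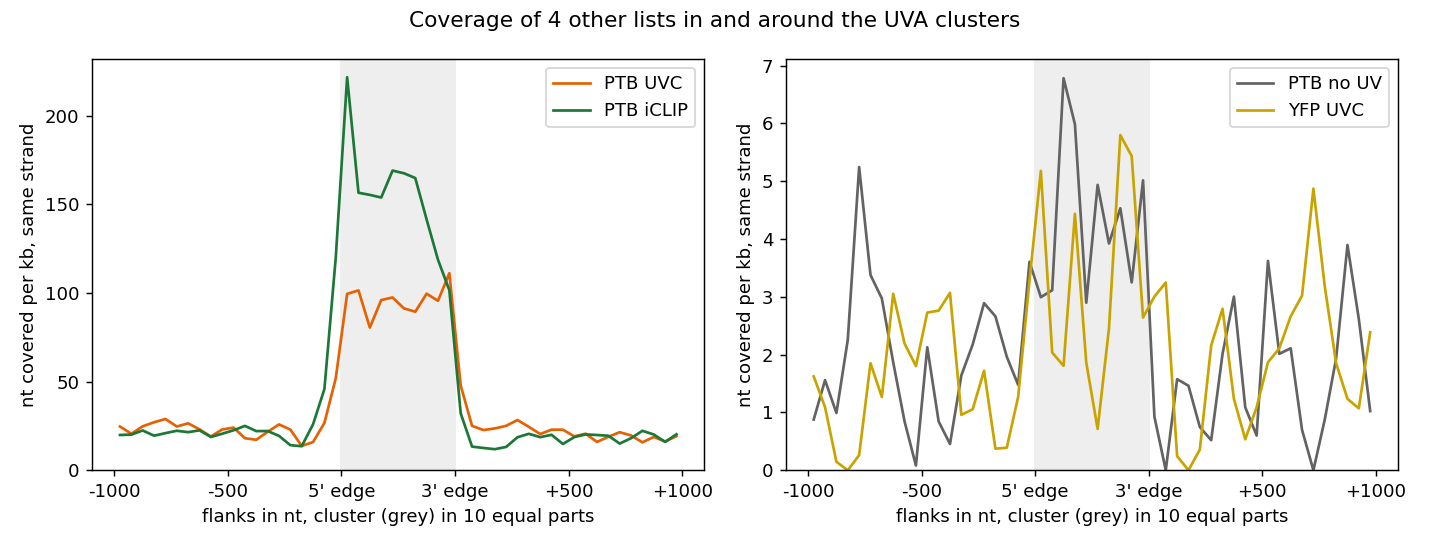
Nucleotides covered per kb on the same strand by each other list across the 1232 clusters, each divided into 10 equal parts from 5′ to 3′ (grey), and in bins of 50 nt over the flanks. The iCLIP curve is highest in the first of these parts and starts to rise upstream of the cluster, the UVC curve rises near both edges and stays between 80.5 and 111.2 nt per kb inside, and the control curves on the right, on a smaller scale, rest on few peaks.

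The same difference appeared site by site. The first UVA site of a cluster, at its 5′ end, met an iCLIP peak in 431 of 1232 clusters (35.0%), and the last in 243 (19.7%), a difference of 15.3 points (interval 11.8 to 18.7). The inner sites stood at 30.1%. First and last sites had median scores of 99 and 95 and median widths of 47 and 43 nt. The difference was 17.6 points on the plus strand (interval 12.7 to 22.4) and 12.9 points on the minus strand (interval 7.95 to 17.9). Among first and last sites scoring above 100 the difference was 16.5 points (interval 11.1 to 21.97). UVC peaks met 18.1% of first and 19.4% of last sites, a difference of -1.30 points with an interval that holds 0 (-4.38 to 1.78). Among sites scoring above 30 and up to 100, UVC met fewer first than last sites (10.3% and 14.5%, difference -4.19 points, interval -8.09 to -0.286), and iCLIP met more (23.8% and 10.5%, difference 13.3 points, interval 8.87 to 17.7). In clusters of 4 the iCLIP share went 34.1%, 29.2%, 30.6% and 17.1% from the first site to the last, so the drop was at the last site. In clusters of 5 it went 35.7%, 34.7%, 33.3% and 30.7%, and 75 of the 300 last sites were met.

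The lopsided iCLIP coverage was not confined to tight clusters. Chains of 3 UVA sites showed 31.1% for the first site and 18.5% for the last, and chains of 2 showed 26.2% and 18.2%. Around single UVA sites iCLIP covered 31.8 nt per kb in the 200 nt upstream and 13.4 nt per kb downstream, a ratio of 2.37. UVC leaned the same way around single sites, at 23.2 and 17.45 nt per kb (ratio 1.33), but not around clusters (ratio 0.909). Where an iCLIP site overlapped a single UVA site, its centre lay 11.5 nt upstream of the UVA centre at the median, and for UVC sites 7 nt upstream.

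Peaks on the opposite strand were almost absent from the clusters. On the strand opposite the UVA sites, 1 cluster held a UVC peak and 1 an iCLIP peak (0.0812% each), and 0 of 1232 held a peak of the list without UV or of the YFP list, which allows a share of up to 0.2435% by a limit of 3 counts and up to 0.299% by the exact interval. UVA peaks themselves covered 0.898 nt per kb of the opposite strand of clusters, against 2.48 nt per kb in the flanks from 5000 to 20000 nt. The overlap described above was therefore strand-specific.

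Few clusters held control peaks, and 2 loci held 28.1% of the no-UV sites and 43.75% of the YFP sites in clusters. Neither control received UVA, so background particular to UVA was not measured. The control lists were small, with 2341 sites without UV and 1080 YFP sites, against 80531 UVC and 52446 iCLIP sites. A peak of PTB without UV lay in 50 clusters (4.06%, interval 3.03 to 5.32), against 0.648% of UVA chains of any size, and a YFP peak in 26 clusters (2.11%, interval 1.38 to 3.08), against 0.424%. In all, 66 clusters (5.36%) held a control peak, and 10 held peaks of both controls. Outside the 2 loci, 44 of 1223 clusters held a peak without UV (3.60%) and 18 a YFP peak (1.47%). By sites, 58 clustered UVA sites met a peak without UV (0.993%, against 0.484% of all UVA sites) and 31 met a YFP peak (0.531%, against 0.342%). Clustered sites exceeded single sites by 0.629 points without UV (interval 0.368 to 0.8895) and by 0.215 points for YFP (interval 0.0208 to 0.4085). As a ratio of shares, this was 2.73 without UV and 1.68 for YFP, beside 1.91 for iCLIP and 1.93 for UVC. The difference from unclustered neighbours within 5 kb was 0.0367 points without UV (interval -0.358 to 0.432) and -0.149 points for YFP (interval -0.465 to 0.167). Both of these intervals hold 0.

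Clusters with a control peak were the stronger ones in UVA. Their highest UVA score had a median of 587.5 and reached the limit in 23 of 66 (34.8%), against a median of 224.5 and 99 of 1166 (8.49%) in clusters without. A UVC peak lay in 58 of the 66 (87.9%, interval 77.5 to 94.6) and in 683 of the 1166 without a control peak (58.6%, interval 55.7 to 61.4). An iCLIP peak lay in 68.2% and 67.1%. Clusters with a control peak were also larger, with medians of 686 nt and 5 UVA sites against 548 nt and 4. The UVC share rose with size in all clusters, from 55.6% at 4 sites to 89.6% at 8 or more, and the part of size in the difference was not tested. Leaving out the clusters with a control peak left the iCLIP share at 67.1%, but these 66 of 1232 clusters could hardly have moved it.

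Of the 10 clusters with both controls, 5 lay at a single locus. They were on chromosome X (minus strand), from 73058715 to 73059182, 73062037 to 73063082, 73063295 to 73064084, 73066947 to 73068736 and 73069029 to 73070032. The cluster from 73066947 was also among those with the most UVA sites. It held 13 UVA sites, 10 of which scored the limit of 1000, and 10 UVC sites scoring 119 to 380. It also held 6 sites without UV (scores 14 to 24), 2 YFP sites (32 and 38) and no iCLIP site. Across these 5 clusters, which span 11318 nt, 35 UVA sites met 22 UVC, 15 no-UV, 7 YFP and 1 iCLIP sites. Every one of the 5 held sites of UVA, UVC and both controls.

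A second such locus lay on chromosome 11 (plus strand) from 65267671 to 65272827, where 4 clusters held 24 UVA, 13 UVC, 13 iCLIP, 3 no-UV and 7 YFP sites. Its cluster from 65270959 to 65272827 had 10 UVA sites, of which 5 were at the score limit, with 9 UVC, 11 iCLIP and 3 YFP sites and none without UV. Its neighbour from 65269727 to 65270377 had 5 UVA sites with 3 UVC, 3 no-UV and 3 YFP sites and no iCLIP site. The remaining clusters with both controls had 4 to 6 UVA sites. They lay on chromosome 1 from 28834666 to 28835360 (plus), chromosome 3 from 186503989 to 186504604 (plus), chromosome 9 from 136217308 to 136218160 (plus) and chromosome 14 from 103986020 to 103986614 (minus). The chromosome 1 cluster held a YFP site at the score limit of 1000 and a no-UV site scoring 303. The chromosome 3 cluster held a YFP site at 1000 and a no-UV site at 74. UVC sites there scored 1000 (chromosome 1) and 932 (chromosome 3). On chromosomes 9 and 14 the YFP scores were 114 and 16, and the no-UV scores 16 and 14. Of the 10 clusters, 4 held peaks of all 4 other lists.

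The clusters took a small part of every list. They held 1749 iCLIP sites (3.33% of that list), 1391 UVC sites (1.73%), 64 sites without UV (2.73%) and 32 YFP sites (2.96%). The control shares rested in part on the X and 11 loci, which were singled out after their values were seen: these 9 clusters held 18 of the 64 no-UV sites and 14 of the 32 YFP sites. Without them the shares were 3.31% for iCLIP, 1.68% for UVC, 1.97% without UV and 1.67% for YFP. The order depended on the unit: counted by peaks, clusters held 3.89% of the YFP list, 3.66% of iCLIP, 2.52% of the list without UV and 1.57% of UVC.

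The other lists formed clusters of their own to different degrees under the same rule. The iCLIP list gave 853 clusters holding 7.58% of its sites, near the 8.34% of UVA, and the UVC list gave 153 clusters holding 0.839%. Neither control list gave a cluster, and their longest chains had 3 sites. These lists held only 2341 (no UV) and 1080 (YFP) sites, against 70110 for UVA, 80531 for UVC and 52446 for iCLIP. Their lack of clusters therefore cannot be set beside the counts of the larger lists. The cluster with the most sites was in the iCLIP list, with 26, against 19 for UVA and 13 for UVC. Of the UVA clusters, 98 (7.95%, interval 6.51 to 9.61) met an iCLIP cluster, and 97 iCLIP clusters (11.4%, interval 9.32 to 13.7) met a UVA cluster. A UVA site of any kind lay in 480 of the 853 iCLIP clusters (56.3%). Of the UVC clusters, 31 (20.3%, interval 14.2 to 27.5) met a UVA cluster and 123 (80.4%) held some UVA site. Both a UVC and an iCLIP cluster were met by 4 UVA clusters. The share of UVA chains of any size that met a cluster of another list was not computed. These meetings can therefore not be called frequent or rare.

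Within a cluster the other maps usually touched some UVA sites and not others. At least 50% of the UVA sites met an iCLIP peak in 372 clusters (30.2%) and a UVC peak in 197 (15.99%). All UVA sites met an iCLIP peak in 37 clusters and a UVC peak in 5. Of the clustered sites, 446 (7.63%) met both lists, 2404 (41.1%) met at least 1 of them, and 3440 (58.9%) met neither. Sites on an iCLIP peak were on a UVC peak more often (26.4%, interval 24.3 to 28.5) than other clustered sites (17.1%, interval 16.01 to 18.3). Among single UVA sites the same shares were 20.9% and 8.39%.

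Clusters were spread over all chromosomes with UVA sites except Y, which had 9 sites. The share of UVA sites lying in clusters was highest on chromosomes X (11.8%, interval 10.5 to 13.2), 5 (11.2%, interval 10.1 to 12.3) and 17 (10.4%, interval 9.62 to 11.3), and lowest on chromosomes 7 (4.63%, interval 3.91 to 5.44) and 2 (5.49%, interval 4.82 to 6.22). Chromosome 19 held the second most clusters, 117 against 144 on chromosome 1. Its share of sites in clusters was 9.07% (interval 8.36 to 9.81), little above the 8.34% of the whole list, so its many clusters went with its many sites. An iCLIP peak lay in 68.4% and a UVC peak in 52.1% of the chromosome 19 clusters. On chromosome 6 the shares were 79.1% and 83.7% of 43 clusters, and on chromosome 4 they were 42.4% and 48.5% of 33.

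**Figure D5:**
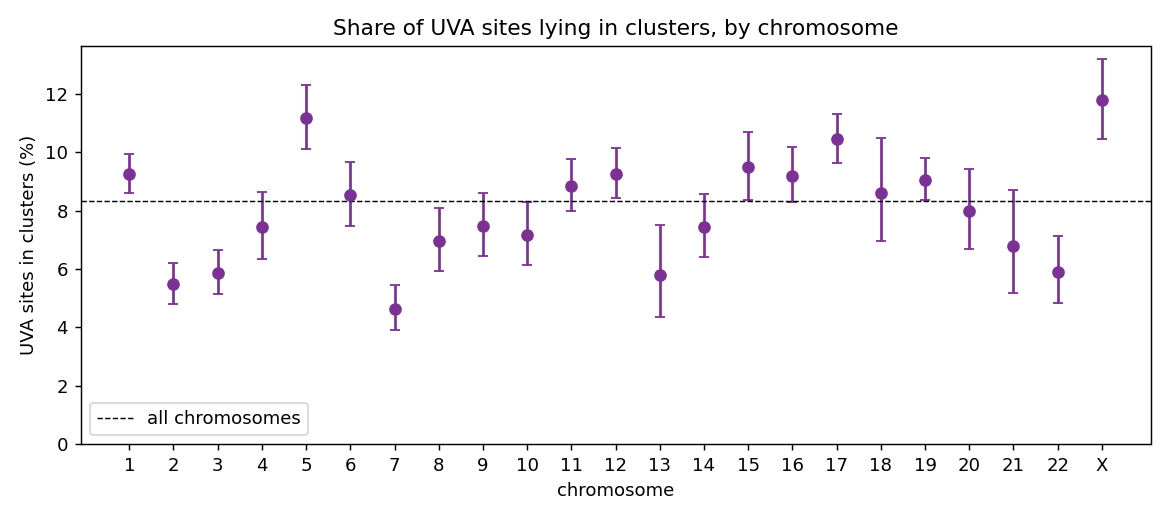
Share of UVA sites that lie in clusters, in percent, for each chromosome with at least 1 cluster; bars are exact 95% intervals for counting error and the dashed line marks the share over all chromosomes, 8.34%. Chromosomes X, 5 and 17 lie highest and chromosomes 7 and 2 lowest.

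Most clusters stood alone. On the same strand, 158 clusters (12.8%) had another within 5 kb, in 72 groups, and 70 (5.68%) had another within 1 kb. The median distance to the next cluster on the strand was 1265 kb. There were 10 loci with 3 or more clusters within 5 kb of each other. Beside the X and 11 loci they included chromosome 21 from 44518306 to 44526834 (minus), with 4 clusters of 25 UVA sites in all. That locus held 2 UVC sites, 3 iCLIP sites and no control site. On chromosome 5 from 179041190 to 179048094 (minus), 3 clusters held 22 UVA, 11 UVC, 7 iCLIP and 1 YFP sites. On chromosome 17 from 30702337 to 30707369 (plus), 3 clusters held 17 UVA, 11 UVC, 6 iCLIP and 2 no-UV sites. The multi-cluster loci thus differed widely in how many UVC and control sites came with a similar number of UVA sites.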

How the data were processed

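Per the submitters' processing notes, Bowtie 1.1.2 was the aligner, with 2 builds, hg19 and dm3, whose roles are not stated. The peak caller, its filters and the pooling of replicates are not given in the sources read. The deposited score (column 7) ranks peaks within a list, and the deposited p-value (column 8) was at most 0.05. Peaks with a p-value and a score both at 0 (538 in UVA) were given the highest score, 1000. Positions were written 1-based. The clusters and the named regions were chosen with earlier results of these data known. Named were the 10 clusters with the most UVA sites, the 5 with the most iCLIP and the 5 with the most UVC sites, and those with both controls, with ties going to the longer cluster. A shared strand and 1 nt in common counted as an overlap. Alternatives varied the merging distance, the gap, the number of sites, strand, chromosomes, overlap and score. The counts of merged sites and overlaps equalled those of bedtools 2.31.1 in 9 of 9 cases, and the chaining was tested on simulated data. Scripts ran in Python 3.11.15 with matplotlib 3.10.9 for figures, pandas 2.3.3 and numpy 2.4.6 for tables and scipy 1.17.1 for intervals.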

Additional observations from a re-analysis of the deposited data

How the results depend on the processing

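The size of the cluster set follows the rule. The number of clusters was 558 with peaks within 50 nt merged, 519 and 2506 with gaps of at most 100 and 500 nt, 3553 and 207 with at least 3 and 6 sites, and 432 from UVA peaks at or above their median score. The count was 1663 with only touching peaks merged and 1250 with strand ignored. The median length was 512 nt (touching peaks merged), 652.5 nt (50 nt), 444 and 845.5 nt (gaps of 100 and 500 nt), 387 and 876 nt (3 and 6 sites) and 586.5 nt (UVA peaks at or above the median score). The share of clusters with an iCLIP peak was 63.97% (gaps of 500 nt), 56.6% (3 sites), 75.4% (6 sites), 79.6% (UVA peaks at or above the median score) and 42.3% (iCLIP peaks at or above their median). The share with a UVC peak was 63.1% (50 nt merged), 47.85% (3 sites), 78.7% (6 sites), 73.8% (UVA peaks at or above the median) and 47.9% (UVC peaks at or above their median). The share with a peak without UV was 5.38% (50 nt merged), 2.73% (3 sites), 7.25% (6 sites) and 6.48% (UVA peaks at or above the median), and with a YFP peak 3.23%, 1.24%, 4.83% and 4.17%. Clustered sites met an iCLIP peak in 27.4% (3 sites), 18.0% (at least 50% of the site covered), 37.5% (UVA peaks at or above the median) and 18.9% (iCLIP peaks at or above their median). They met a UVC peak in 18.2% (3 sites), 22.5% (6 sites), 9.10% (50% covered), 26.9% (UVA peaks at or above the median) and 15.0% (UVC peaks at or above their median). Without the clusters holding a control peak, a setting added after seeing the data, the UVC share of sites was 18.7%. The cause of these moves was not tested beyond the smaller or larger sets that the settings make. The remaining 32 values moved by less than their counting interval or, for counts, by less than 1.5 times. No paired analysis was possible because each group has 1 list for both replicates. Depth is unknown, so a list without a peak in a cluster may have lacked reads there. For the iCLIP list, which is no sample of this series, a difference in the RNAs of the cells was not tested either.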

Other observations

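The gaps between clustered UVA sites were themselves described against the other lists. Of the 4612 gaps, 1150 (24.9%) were touched by an iCLIP peak and 863 (18.7%) by a UVC peak. A single iCLIP peak spanned the whole gap and reached both flanking sites in 100 gaps (2.17%), and a single UVC peak in 46 (0.997%). A peak lay wholly within the gap in 263 cases for UVC (5.70%) and 196 for iCLIP (4.25%). UVC peaks thus fell free of the UVA sites in more gaps than iCLIP peaks did, although they touched fewer gaps. Peaks were counted here before joining, and the UVC list has 118434 peaks in 80531 sites, the iCLIP list 58213 in 52446. A peak within a gap can therefore belong to a UVC site that also overlaps a UVA site. The part of peak number and splitting in this difference was not tested. There were 55 clusters with a UVC peak and 27 with an iCLIP peak that lay between the UVA sites and on none of them.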
